A study of Mus musculus with 8 samples.

Results

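Potassium channel genes were taken as every protein-coding row of the expression table whose symbol begins with Kcn, which gave 94 genes of 54532 listed. The set covers pore-forming subunits, their accessory subunits and Kcnip family members, and the rule uses no expression value. Of the 94 genes, 35 reached 0.5 FPKM in at least 2 of 8 libraries. FPKM counts fragments per kilobase of gene relative to library size, so levels can be compared between genes. RNA came from heart tissue of C57BL/6 mice, in 4 groups of 2 libraries. The groups were Piezo1-Cko mice after TAC surgery, Piezo1-Cko mice after sham surgery, wild-type (WT) mice after TAC surgery and WT mice after sham surgery. TAC is read here, by common usage, as transverse aortic constriction, in which a band on the aortic arch raises the pressure load of the left ventricle, and a sham operation leaves the arch open. Piezo1 is a mechanically gated cation channel. Neither the Cre driver nor the deleted exons of the Piezo1-Cko allele, nor the animals' age or the time after surgery, were given in the labels. Nothing states that the libraries came from separate mice. Each p-value below therefore sets a difference only against the scatter among these samples, and that scatter may be technical.

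Potassium channels let potassium leave the cell and so end the cardiac action potential and hold the resting potential. In mouse ventricle a fast transient outward current carried by Kv4 channels and slower delayed rectifier currents drive repolarization, while inward rectifiers set the resting potential. Acetylcholine-gated inward rectifiers are known mainly from atria and nodal tissue, ATP-sensitive channels couple excitability to metabolism, and tandem-pore (K2P) channels carry background leak current. Loss of transient outward current and of its subunits is a textbook feature of hypertrophied and failing hearts.

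The recovered reads summed to between 15574769 and 17313084 per library, and mitochondrial genes took 17.6% to 24.4% of them. Piezo1, the targeted gene, was at 5.24 and 3.89 FPKM in Cko TAC and 3.83 and 3.24 FPKM in Cko sham, against 5.38 and 5.83 FPKM in WT TAC and 2.35 and 3.09 FPKM in WT sham. The genotypes overlapped, so the transcript level did not check the genotype labels, which are used below as given. WT sham 1 stood apart through atrial transcripts, with Myl7 at 394 FPKM against at most 0.442 FPKM in the other 7 libraries, and Sln at 43.5 FPKM against 0 in the other 7. Of the other atrial markers, Myl4 (40.4 FPKM) and Tbx5 (5.88 FPKM) were also highest there. Nppa was not, at 112 FPKM against 97.9 to 116 FPKM in the other sham libraries, and Bmp10 was at 0 in all 8 libraries. Dkk3 was at 41.0 FPKM in WT sham 1 and 25.2 FPKM in WT TAC 1, against 0.758 to 2.13 FPKM in the others. How much atrial tissue each sample held was not tested. The 4 adipocyte markers summed to 5.50 FPKM in WT sham 1, against 0 to 0.700 FPKM in the other 7 libraries. WT TAC 1 also stood apart through Igkc, an immunoglobulin light chain gene, at 272 FPKM, against 4.24 to 25.9 FPKM in the others. The other 6 genes of the lymphocyte list summed to 11.8 FPKM there, within the 6.12 to 15.8 FPKM of the others. For many of the results averaged over genotypes below, the value without both WT sham 1 and WT TAC 1 is given too.

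A few genes held most of the potassium channel transcript level. Over all 8 libraries the mean level was highest for Kcnk3, which encodes the background leak channel TASK-1, at 53.2 FPKM. It was followed by Kcng2 at 41.0 FPKM, a subunit that forms no channel alone and modifies other Kv pores, and by Kcnip2 at 37.9 FPKM, which encodes KChIP2, the accessory subunit of the transient outward channel. Kcnj8 at 33.8 FPKM and Kcnj11, the pores of the ATP-sensitive channels Kir6.1 and Kir6.2, completed the 5 highest genes, which made up 65.5% of the summed mean level of all 94. The 7 genes with a mean of at least 10 FPKM made up 75.5%, 17 more lay between 1 and 10 FPKM, and 11 tested genes had a mean under 1 FPKM. The summed level of the 94 genes was 220 and 238 FPKM in Cko TAC and 326 and 349 FPKM in Cko sham, against 248 and 254 FPKM in WT TAC and 383 and 357 FPKM in WT sham. It was lower in each of the 4 TAC libraries than in any sham library, a description with no test.

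**Figure D1:**
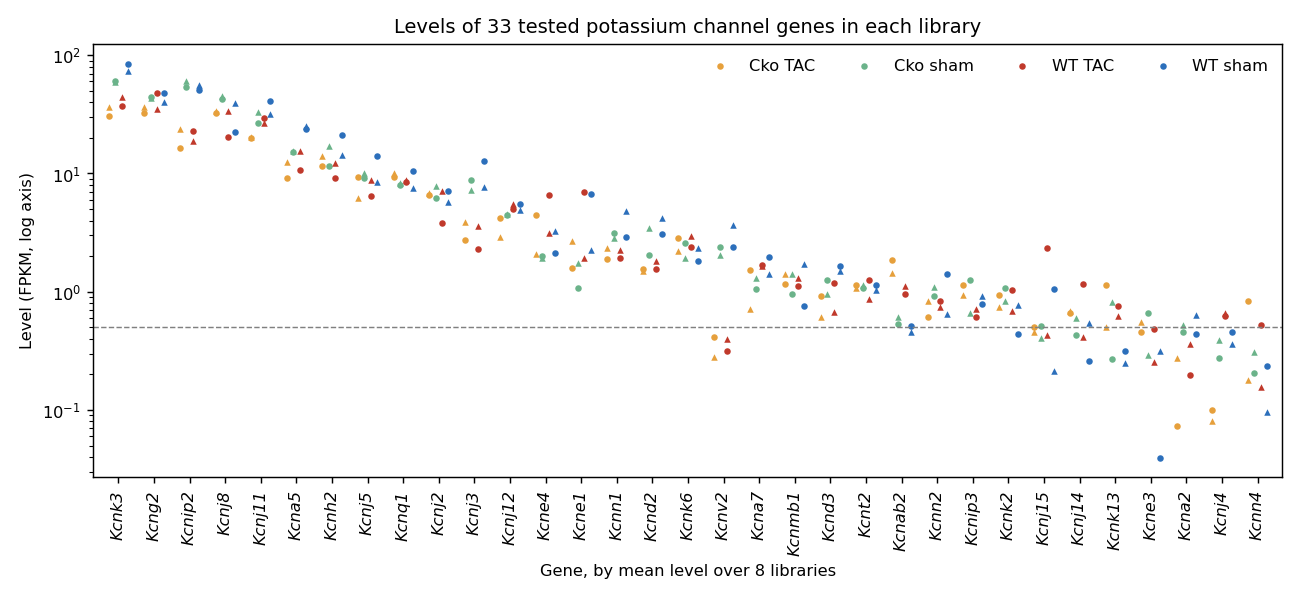
Level of each of 33 tested potassium channel genes in each of 8 libraries, in FPKM on a log axis, with genes ordered by their mean level. Circles are replicate 1, triangles are replicate 2, colours are the 4 groups and the dashed line is 0.5 FPKM; Kcnk3, Kcng2, Kcnip2 and Kcnj8 have the highest means, and the TAC libraries of Kcnv2 all lie under the line.

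The other 59 genes did not reach 0.5 FPKM in 2 libraries. Of these, 12 had no read in any library, among them Kcna10, Kcnb2, Kcnf1, Kcng3, Kcnk9 and Kcnv1, and 3 reads in the smallest library, the limit that a count of 0 allows, would be between 0.0139 FPKM for the long gene Kcnb2 and 0.167 FPKM for the short gene Kcnj13. The remaining 47 had reads, and the highest value among them was 0.690 FPKM for Kcna4, a Shaker pore that contributes the slow transient outward current, in WT TAC 1. Kcnd2 and Kcnd3, the fast Kv4 pores, stood above it at 2.40 and 1.09 FPKM on average. Just inside the limit, the second highest libraries of Kcne3, Kcna2 and Kcnn4 were at 0.553, 0.527 and 0.526 FPKM. Just outside it, those of Kcnab1, Kcna6 and Kcne1l were at 0.494, 0.461 and 0.423 FPKM. Of the potassium channel genes, 37.2% were tested, against 56.1% of all 22046 protein-coding genes.

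Roles differed in how many of their genes reached the limit. In the transient outward group 4 of 8 did, and in the Shaker, Shab and Shaw delayed rectifiers 4 of 13 did. The electrically silent Kv subunits had 2 of 10, the KCNQ pores with their KCNE subunits 5 of 10, the EAG, ERG and ELK pores 1 of 8, and the Kv beta subunits 1 of 3. Among inward rectifiers, the counts were 5 of 9 for strong rectifiers and transport types, 2 of 4 for G protein-gated pores and 2 of 2 for ATP-sensitive pores. The tandem-pore group had 4 of 14, and the channels activated by calcium or sodium had 5 of 12. Kcnrg, a regulator of Kv assembly that carries no pore, averaged 0.185 FPKM.

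The comparison of TAC with sham asks how the pressure load changed each transcript, and it was made within each genotype and averaged over both genotypes with limma on log2(FPKM + 0.5). Averaged over genotypes, 9 of the 35 tested genes passed an adjusted p of 0.05. Kcnv2, Kcnip2, Kcnk3, Kcnj3, Kcna5, Kcnd2, Kcnj11 and Kcnn1 fell and Kcnab2 rose. That is 25.7% of the tested potassium channel genes, near the 25.4% of all 13930 tested genes. The 8 that fell are 22.9% against 13.5% of all genes, and the 1 that rose is 2.86% against 11.9%. In Cko hearts 4 passed, with 3 lower and 1 higher, or 11.4% against 1.49% of all genes, of which 0.546% were lower and 0.948% higher. In WT hearts 6 passed, all lower, or 17.1% against 13.2% of all genes, of which 7.65% were lower. The median log2 fold change of the 35 genes was -0.15 averaged over genotypes, -0.16 in Cko hearts and -0.10 in WT hearts, and the median of all tested genes was 0.01, -0.00 and 0.01 in the same comparisons. Averaged over genotypes, TAC libraries of 7 genes all lay below every sham library, where 14.6% of all genes did, and those of 1 gene all lay above, where 13.1% of all genes did. Among the lower genes, Kcnv2 and Kcna2 reached 0.5 FPKM, and so entered the test, only through sham libraries.

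With reads scaled to the library total in place of the authors' scaling, the median of all genes moved by 0.18 on the log2 scale in Cko and by 0.19 in WT hearts. The WT calls then split into 5 lower and 1 higher, where 17.0% of all genes passed in either direction. Without WT sham 1 and WT TAC 1 together, 7 genes passed averaged over genotypes, where 12.9% of all genes did, and 0 passed in WT hearts, where 0.00718% of all genes did and 1 library per arm was then left and was assumed to vary like the other groups.

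**Figure D2:**
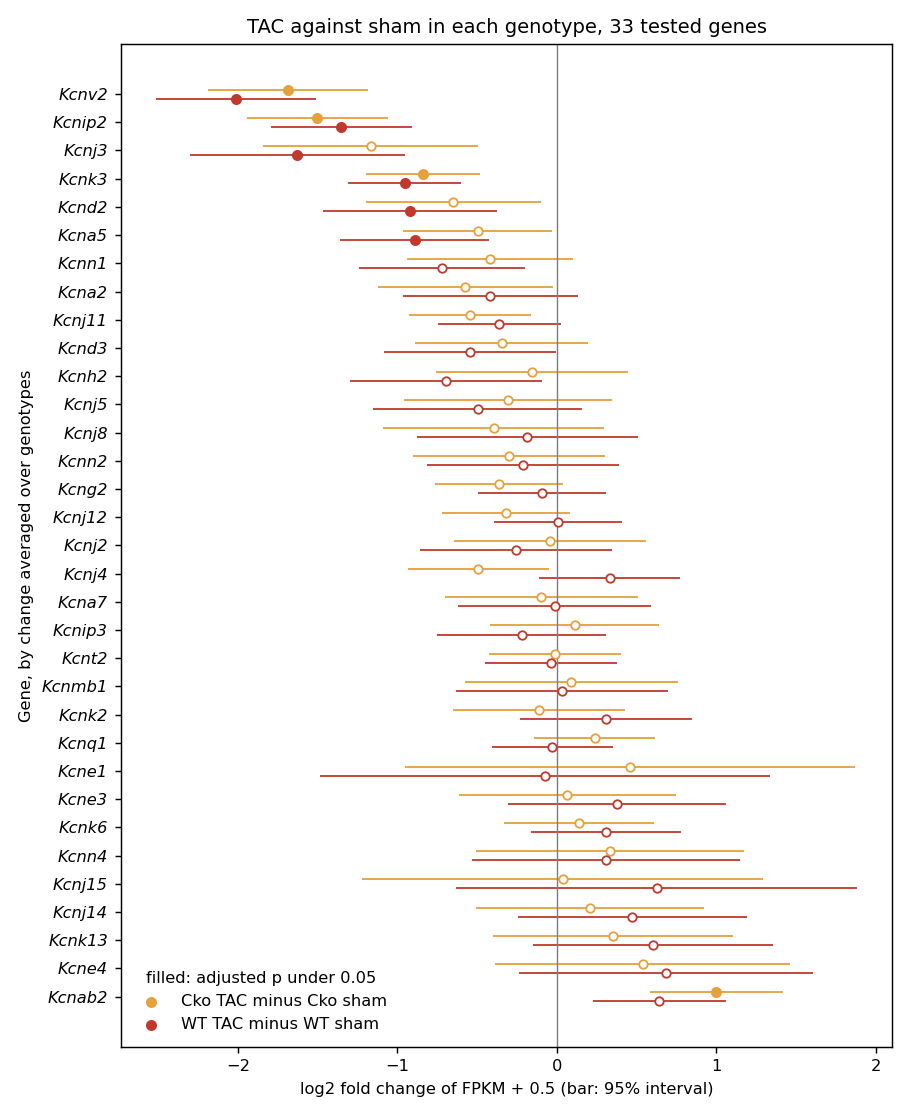
TAC minus sham on the log2(FPKM + 0.5) scale for each of 33 tested genes, in Cko and in WT hearts, with 95% intervals from limma on 2 libraries per group. Filled points passed an adjusted p of 0.05: Kcnip2, Kcnv2, Kcnk3 and Kcnab2 in Cko hearts, and Kcnv2, Kcnip2, Kcnk3, Kcnj3, Kcna5 and Kcnd2 in WT hearts.

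Kcnip2 encodes KChIP2, a calcium-binding subunit that brings Kv4 pores to the membrane. It was at 16.5 and 23.9 FPKM in Cko TAC against 54.1 and 60.4 FPKM in Cko sham, and at 22.7 and 18.8 FPKM in WT TAC against 51.2 and 55.8 FPKM in WT sham. Every TAC library lay below every sham library, and the genotypes overlapped within each surgery. Over both genotypes it averaged 20.5 ± 3.41 FPKM after TAC and 55.4 ± 3.84 FPKM after sham (SD, n = 4 each), a log2 fold change of -1.43 (SE 0.135, limma adjusted p = 0.00227), or 2.69-fold lower. It passed in Cko hearts (-1.50, adjusted p = 0.0296) and in WT hearts (-1.35, adjusted p = 0.0140). The WT call was lost without WT TAC 1 (adjusted p = 0.0541) or WT sham 2 (0.0619), and the Cko call without Cko TAC 1 (0.147) or either Cko sham library (0.247 and 0.165). Without WT sham 1 and WT TAC 1 together the averaged value was -1.52 (adjusted p = 0.0137).

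Kcnd2 encodes Kv4.2, the main pore of the fast transient outward current in mouse ventricle. Its level was 1.55 and 1.51 FPKM in Cko TAC against 2.05 and 3.46 FPKM in Cko sham, and 1.54 and 1.803 FPKM in WT TAC against 3.09 and 4.21 FPKM in WT sham. TAC libraries were all below the sham libraries, the nearest being Cko sham 1. Averaged over genotypes the log2 fold change was -0.79 (SE 0.166, limma adjusted p = 0.0157), a call lost only without Cko TAC 1 (0.0506) among the fits that left out 1 library, and it was -0.84 (0.0486) without WT sham 1 and WT TAC 1 together. The WT value of -0.92 passed at 0.0434 but did not pass when any 1 of the 8 libraries was left out (0.0526 to 0.176), and the Cko value of -0.65 did not pass (0.166). Kcnd3, the Kv4.3 pore, was at 0.850 FPKM on average after TAC and 1.33 FPKM after sham, with an averaged log2 fold change of -0.45 that did not pass (0.0831). Kcnip3, another member of the KChIP family, was at 0.606 to 1.15 FPKM after TAC and 0.663 to 1.25 FPKM after sham and did not pass.

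The sequences upstream of Kcnip2 and Kcnd2, which encode partners in 1 channel and were both lower after TAC, and of Kcnj3, the G protein-gated pore described below, are shown because a RefSeq promoter was available for these among the genes that changed most. Each is the 250 bases before the annotated start in GRCm38.p6, written 5′ to 3′ on the gene's strand, at chr19:45816064-45816313 (minus strand) for Kcnip2, chr6:21215096-21215345 (plus) for Kcnd2 and chr2:55435720-55435969 (plus) for Kcnj3. Capitals mark GC boxes (GGGCGG on either strand).
Kcnip2: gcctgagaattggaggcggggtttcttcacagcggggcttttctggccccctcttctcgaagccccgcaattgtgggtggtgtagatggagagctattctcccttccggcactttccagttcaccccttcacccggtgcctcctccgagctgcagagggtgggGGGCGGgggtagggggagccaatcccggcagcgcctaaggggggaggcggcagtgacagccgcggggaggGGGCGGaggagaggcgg
Kcnd2: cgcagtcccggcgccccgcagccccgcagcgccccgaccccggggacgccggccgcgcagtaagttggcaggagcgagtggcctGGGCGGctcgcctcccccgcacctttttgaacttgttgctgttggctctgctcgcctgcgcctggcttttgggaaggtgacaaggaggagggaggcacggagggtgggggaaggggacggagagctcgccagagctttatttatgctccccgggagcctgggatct
Kcnj3: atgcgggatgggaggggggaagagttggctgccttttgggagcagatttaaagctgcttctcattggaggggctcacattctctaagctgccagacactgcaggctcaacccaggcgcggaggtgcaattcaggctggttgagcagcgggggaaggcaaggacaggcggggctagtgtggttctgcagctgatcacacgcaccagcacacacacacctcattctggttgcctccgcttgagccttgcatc
The Kcnip2 and Kcnd2 sequences were 66.8% and 68.8% G or C, that of Kcnj3 was 58.4%, and the median of all promoters in the RefSeq table was 52.4%. Kcnip2 held 2 GC boxes, Kcnd2 held 1 and Kcnj3 held 0, and 32.7% of 32851 promoters of the same length held at least 1. None of the 3 held an E-box (CACGTG, in 6.02% of all promoters), a TATA box (TATAAA, 12.4%) or a GATA site (AGATAA, 9.99%) on either strand. A promoter was matched by symbol for 69 of the 94 genes and for 6 of the 9 that passed averaged over genotypes.

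Kcna5 encodes Kv1.5, a delayed rectifier pore. Its values were 9.17 and 12.5 FPKM in Cko TAC against 15.3 and 15.4 FPKM in Cko sham, and 10.8 and 15.5 FPKM in WT TAC against 23.6 and 25.3 FPKM in WT sham. WT TAC 2 lay just above both Cko sham libraries, so TAC and sham overlapped over genotypes though not within either. Its change averaged over genotypes was -0.69 (SE 0.142, limma adjusted p = 0.0142), and the WT value was -0.89 (0.0328). The averaged call was lost without WT sham 1 and WT TAC 1 together (0.0502) and without either Cko sham library. The WT call was kept in 3 of 8 fits that left out 1 library, and WT TAC 1, each WT sham library and each Cko sham library ended it (0.0665 to 0.138). Kcna2 and Kcna7, further Shaker pores, did not pass (-0.50, limma adjusted p = 0.0645 for Kcna2). Kcna2 entered the test only through WT sham 2 (0.639 FPKM) and Cko sham 2 (0.527 FPKM).

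Kcnab2 encodes a cytoplasmic beta subunit that binds Kv1 pores. It was at 1.87 and 1.44 FPKM in Cko TAC against 0.538 and 0.609 FPKM in Cko sham, and at 0.954 and 1.13 FPKM in WT TAC against 0.517 and 0.455 FPKM in WT sham. All TAC libraries were above all sham libraries, and it was the 1 tested potassium channel gene for which that held. The recovered reads were 192 and 139 in Cko TAC, 46 and 52 in Cko sham, 99 and 111 in WT TAC and 41 and 36 in WT sham. The averaged log2 fold change was 0.82 (SE 0.127, limma adjusted p = 0.00679), or 1.77-fold higher, with 1.00 in Cko hearts (0.0479) and 0.64 in WT hearts (0.0542). The Cko call was lost without Cko TAC 1 or any 1 of the 4 sham libraries (0.0638 to 0.293). Without WT sham 1 and WT TAC 1 together the averaged value was 0.88 (0.0320) and the Cko call was lost (0.0586). Kcnab2 is also expressed in cells other than cardiomyocytes, and the 7 macrophage markers summed to 337 to 472 FPKM after TAC and 241 to 270 FPKM after sham; their part in this rise was not tested.

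Silent Kv subunits form no channel alone and modify other Kv pores. Kcnv2, which encodes Kv8.2, was at 0.414 and 0.283 FPKM in Cko TAC against 2.40 and 2.06 FPKM in Cko sham, and at 0.316 and 0.399 FPKM in WT TAC against 2.38 and 3.64 FPKM in WT sham. The TAC libraries lay together under 0.5 FPKM and the sham libraries lay all above 2 FPKM. Kcnv2 therefore entered the test only through the sham libraries, where it was high. Between 25 and 39 reads supported each TAC value and between 161 and 264 each sham value. Over both genotypes the log2 fold change was -1.85 (SE 0.153, limma adjusted p = 0.00185), the largest fall among the 35 tested genes. It passed in Cko hearts (-1.69, 0.0296) and in WT hearts (-2.01, 0.00900). Because 0.5 was added to each value, that size is understated for a gene at this level: limma-voom on the recovered reads gave -2.85 and a pseudocount of 0.1 FPKM gave -2.56. The WT call was kept in 8 of 8 fits that left out 1 library and the Cko call in 5 of 8, where Cko TAC 1 and each Cko sham library ended it (0.153 to 0.253). Without WT sham 1 and WT TAC 1 together the averaged value was -1.95 and passed (0.0106), and the WT value of -2.20 did not (0.0666). Kcng2 differed from Kcnv2, with 37.8 ± 6.84 FPKM after TAC and 44.1 ± 3.22 FPKM after sham (SD, n = 4 each), overlapping libraries and an averaged log2 fold change of -0.23 that did not pass (0.198).

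**Figure D3:**
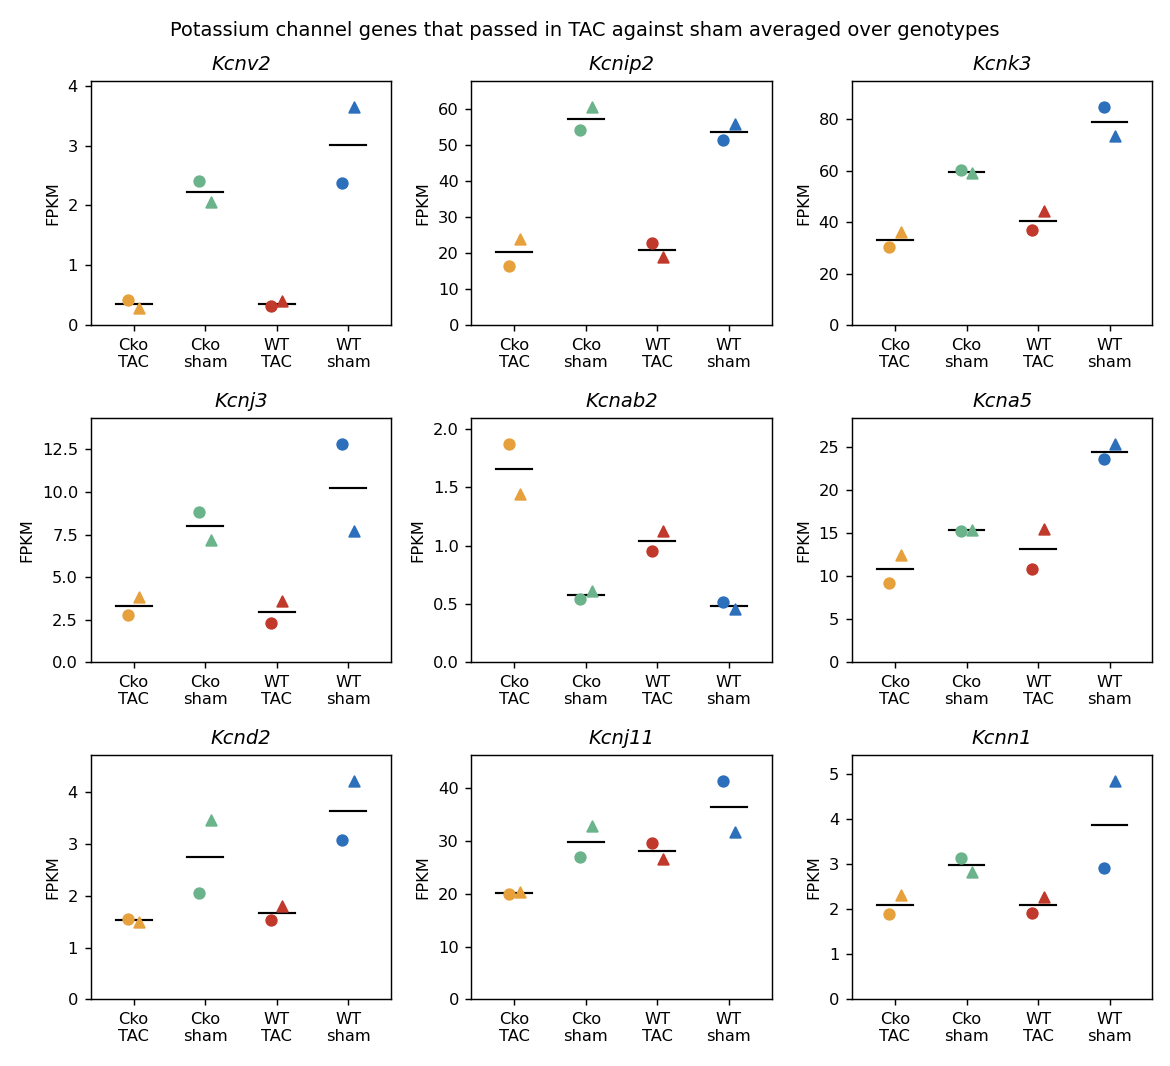
FPKM of the 9 genes that passed in TAC against sham averaged over genotypes, by group, on linear axes from 0. Circles are replicate 1, triangles are replicate 2 and black lines are group means; the TAC points lie below all sham points for Kcnv2, Kcnip2, Kcnk3, Kcnj3, Kcnd2 and Kcnn1, above them for Kcnab2, and overlap them for Kcna5 and Kcnj11.

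KCNQ and ERG channels carry slow and rapid delayed rectifier currents that matter more in large mammals than in mouse. Kcnq1, the pore of the slow current, averaged 9.21 ± 0.705 FPKM after TAC and 8.58 ± 1.30 FPKM after sham (SD, n = 4 each), with an averaged log2 fold change of 0.10 and a 95% interval of -0.16 to 0.37. Kcne1, its accessory subunit, was at 1.59 and 2.70 FPKM in Cko TAC against 1.08 and 1.75 FPKM in Cko sham, and at 6.91 and 1.92 FPKM in WT TAC against 6.72 and 2.26 FPKM in WT sham. Its high libraries were WT TAC 1 and WT sham 1, 1 from each surgery, and its averaged log2 fold change of 0.19 had an interval of -0.81 to 1.19. Without both libraries it was 0.13 (limma adjusted p = 0.726). Kcne4, a subunit that inhibits several Kv pores, was at 4.49 and 2.09 FPKM in Cko TAC against 2.01 and 1.94 FPKM in Cko sham, and at 6.62 and 3.13 FPKM in WT TAC against 2.14 and 3.29 FPKM in WT sham. Its averaged value of 0.61 did not pass (limma adjusted p = 0.145). Kcnh2, the ERG pore, was at 11.5 and 13.9 FPKM in Cko TAC against 11.7 and 17.1 FPKM in Cko sham, and at 9.14 and 12.2 FPKM in WT TAC against 21.2 and 14.3 FPKM in WT sham. The WT libraries did not overlap, but neither the WT value of -0.69 (0.108) nor the averaged value of -0.42 (0.125) passed. The averaged value was -0.19 (0.504) without WT sham 1 and WT TAC 1 together. Kcnh7, the next ERG-type gene by level, averaged 0.0551 FPKM after TAC and 0.0957 FPKM after sham. Kcne3 did not pass either.

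Classical inward rectifiers hold the resting potential of ventricular cells. Kcnj2, which encodes Kir2.1, was at 6.63 and 6.80 FPKM in Cko TAC against 6.19 and 7.76 FPKM in Cko sham, and at 3.82 and 7.06 FPKM in WT TAC against 7.04 and 5.68 FPKM in WT sham. The low value was WT TAC 1, and the averaged log2 fold change was -0.15 with an interval of -0.58 to 0.28. Leaving out both WT sham 1 and WT TAC 1 gave 0.12 (limma adjusted p = 0.546), so its sign turned, and neither value passed. Kcnj12, which encodes Kir2.2, averaged 4.40 FPKM after TAC and 4.87 FPKM after sham. None of the 5 tested genes of this group passed in TAC against sham.

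G protein-gated channels of the heart are built from Kcnj3 (Kir3.1) and Kcnj5 (Kir3.4) subunits and carry the acetylcholine-activated current. Kcnj3 was at 2.76 and 3.85 FPKM in Cko TAC against 8.80 and 7.19 FPKM in Cko sham, and at 2.28 and 3.61 FPKM in WT TAC against 12.8 and 7.72 FPKM in WT sham. No TAC library reached any sham library, and the highest value belonged to WT sham 1, the library high in Myl7 and Sln. The averaged log2 fold change was -1.40 (SE 0.204, limma adjusted p = 0.00615), or 2.64-fold lower, with -1.17 in Cko hearts (0.0803) and -1.63 in WT hearts (0.0214). Without WT sham 1 the WT value was -1.28 and did not pass (0.0565), and without WT TAC 1 it was -1.35 (0.0961). Without both together the averaged value was -1.08 and passed (0.0223). Kcnj5 was at 9.35 and 6.23 FPKM in Cko TAC against 9.13 and 10.01 FPKM in Cko sham, and at 6.44 and 8.83 FPKM in WT TAC against 14.0 and 8.42 FPKM in WT sham. It too was highest in WT sham 1, its surgeries overlapped and its averaged value of -0.40 did not pass (0.170). Without both libraries that value was -0.12 (0.662).

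The ATP-sensitive pores pair with sulfonylurea receptors. Kcnj11, the Kir6.2 pore of cardiomyocytes, was at 20.02 and 20.4 FPKM in Cko TAC against 26.9 and 32.9 FPKM in Cko sham, and at 29.5 and 26.6 FPKM in WT TAC against 41.2 and 31.6 FPKM in WT sham. TAC was below sham within each genotype, though WT TAC 1 lay above Cko sham 1. Averaged over genotypes Kcnj11 had a log2 fold change of -0.45 (SE 0.117, limma adjusted p = 0.0290), and it passed in neither genotype alone. Of the fits that left out 1 library it passed only in that without WT sham 2, and it did not pass without WT sham 1 and WT TAC 1 together (0.0812). Kcnj8, the Kir6.1 pore known mainly from smooth muscle and pericytes, was at 32.7 and 33.5 FPKM in Cko TAC against 42.2 and 45.3 FPKM in Cko sham, and at 20.5 and 33.6 FPKM in WT TAC against 22.6 and 39.7 FPKM in WT sham. Replicate 1 was the lower library in both WT groups, and the averaged value of -0.29 did not pass (0.332). It was -0.32 (0.0911) without WT sham 1 and WT TAC 1 together.

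Kcnk3, the TASK-1 leak channel, was at 30.3 and 36.1 FPKM in Cko TAC against 60.1 and 59.1 FPKM in Cko sham, and at 36.8 and 44.5 FPKM in WT TAC against 84.7 and 73.6 FPKM in WT sham. All TAC libraries lay below all sham libraries, and WT libraries lay above Cko libraries of the same surgery. The averaged log2 fold change was -0.90 (SE 0.108, limma adjusted p = 0.00386), or 1.86-fold lower, with -0.84 in Cko hearts (0.0484) and -0.95 in WT hearts (0.0173). The Cko call was lost without Cko TAC 1 or any 1 of the 4 sham libraries (0.0614 to 0.293), and the WT call without WT TAC 1 or either WT sham library (0.0544 to 0.0840). The averaged call was kept in all 8 such fits, and without WT sham 1 and WT TAC 1 together it was -0.78 (0.0218). Kcnk6, another tandem-pore gene, averaged 2.60 FPKM after TAC and 2.16 FPKM after sham, and Kcnk2, the stretch-gated TREK-1 channel, and Kcnk13 did not pass.

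Kcnn1 encodes SK1, a small-conductance channel opened by calcium through calmodulin. It was at 1.88 and 2.32 FPKM in Cko TAC against 3.13 and 2.82 FPKM in Cko sham, and at 1.92 and 2.26 FPKM in WT TAC against 2.91 and 4.82 FPKM in WT sham. The TAC libraries were all lower, and WT sham 2 stood above the other sham libraries. As an average over genotypes it changed by -0.57 on the log2 scale (SE 0.158, limma adjusted p = 0.0361), and it did not pass in either genotype alone. It was kept only without WT sham 1 or Cko TAC 2 among the fits that left out 1 library (0.0550 to 0.113 in the others), and without WT sham 1 and WT TAC 1 together it was -0.68 (0.0355). Kcnmb1, the beta subunit of large-conductance channels in smooth muscle, averaged 1.25 FPKM after TAC and 1.21 FPKM after sham. It did not pass, nor did Kcnn2, Kcnn4 or Kcnt2.

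Comparisons of Piezo1-Cko with WT ask whether the genotype shifted these transcripts at rest or under load. No potassium channel gene passed in any of them. In sham hearts 0 of 35 passed, where 0.0215% of all genes did, and 2 had an unadjusted p under 0.05, as 7.67% of all genes did: Kcna5 (-0.66, limma adjusted p = 0.511) and Kcnk3 (-0.40, 0.592). In TAC hearts 0 passed, where 0% of all genes did, and 4 had an unadjusted p under 0.05, as 9.11% of all genes did. These were Kcnj4 (-0.95, 0.449), Kcnj12 (-0.52, 0.514), Kcnj11 (-0.46, 0.526) and Kcnab2 (0.48, 0.532). Averaged over surgeries 0 passed, where 0.00718% of all genes did, 6 had an unadjusted p under 0.05, as 11.4% of all genes did, and the smallest adjusted p was 0.256. For Kcnip2 the averaged genotype difference was 0.02 with a 95% interval of -0.29 to 0.33.

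The interaction, the TAC response in Cko hearts minus that in WT hearts, asks whether the genotype changed the response. It passed for 0 of 35 genes, where 0.00718% of all genes did, and 1 gene had an unadjusted p under 0.05, as 4.77% of all genes did. For Kcnip2 it was -0.15 (interval -0.78 to 0.48), for Kcnv2 0.33 (-0.39 to 1.04), for Kcnk3 0.12 (-0.39 to 0.62), for Kcnj3 0.46 (-0.49 to 1.42) and for Kcnab2 0.36 (-0.23 to 0.95). All of these intervals held 0. They reached as far as 1.42 on the log2 scale for Kcnj3 and 0.62 for Kcnk3, so differences in response of that size were not excluded. The gene with the unadjusted call was Kcnj4, the Kir2.3 pore, which was singled out after its values were seen and which reached 0.5 FPKM, and so entered the test, only through the 2 WT TAC libraries. It was at 0.101 and 0.0807 FPKM in Cko TAC against 0.273 and 0.395 FPKM in Cko sham, and at 0.625 and 0.658 FPKM in WT TAC against 0.458 and 0.360 FPKM in WT sham. Cko TAC was below Cko sham while WT TAC was above WT sham, on 3 to 25 reads per library. Its interaction of -0.82 did not pass (limma adjusted p = 0.911).

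Of 18 genes listed as partners and regulators of these channels, 13 were tested, and 4 fell and 0 rose averaged over genotypes, where 13.5% of all genes fell and 11.9% rose. Their median log2 fold change was -0.21, against 0.01 for all genes. The sulfonylurea receptors that complete ATP-sensitive channels were among them. Abcc8 (SUR1) was at 2.14 and 2.19 FPKM in Cko TAC against 4.08 and 4.36 FPKM in Cko sham, and at 3.28 and 2.19 FPKM in WT TAC against 5.56 and 4.34 FPKM in WT sham. Its TAC libraries were all below its sham libraries (-0.79, SE 0.137, limma adjusted p = 0.00888). Abcc9 (SUR2) had -0.39 (0.0380) and Lrrc52, a gamma subunit of large-conductance channels, had -0.82 (0.0388). Klf15, a transcription factor that drives a daily rhythm of Kcnip2 in mouse heart, was at 4.52 to 10.3 FPKM after TAC and 9.38 to 23.2 FPKM after sham, with WT TAC 2 above Cko sham 1. Its averaged change was -1.04 (SE 0.210, limma adjusted p = 0.0142). Irx5, a repressor of Kcnd2 in mouse ventricle, was at 0.16 and did not pass (0.457). Dpp6 and Dpp10, transmembrane partners of Kv4 pores in neurons, had at most 0.01 FPKM in any library.

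Ratios of levels within a library, chosen after the levels had been seen and given with no test, set partner subunits against each other. The ratio of Kcnj3 to Kcnj5 was 0.295 and 0.619 in Cko TAC against 0.964 and 0.718 in Cko sham, and 0.354 and 0.409 in WT TAC against 0.917 and 0.916 in WT sham. TAC and sham did not overlap, and WT sham 1 and WT sham 2 had nearly the same ratio although their levels differed. The ratio of Kcnj11 to Abcc8 was 8.99 to 12.1 after TAC and 6.58 to 7.54 after sham. Against Abcc9, the other receptor gene, the surgeries overlapped for Kcnj11. It was above Abcc9 in WT TAC 1 (29.5 against 21.1 FPKM) and in WT sham 1 (41.2 against 31.9 FPKM). It was below Abcc9 in Cko TAC 1 (20.02 against 21.3 FPKM) and in Cko sham 1 (26.9 against 31.1 FPKM). For Kcnj8 to Abcc9 the surgeries overlapped, at 0.973 to 1.53 after TAC and 0.707 to 1.48 after sham. The ratio of Kcnk3 to Kcnj2 overlapped too, at 4.58 to 9.64 after TAC and 7.62 to 12.9 after sham. The ratio of Kcnip2 to the sum of Kcnd2 and Kcnd3 was 6.70 and 11.2 in Cko TAC against 16.3 and 13.7 in Cko sham, and 8.30 and 7.56 in WT TAC against 10.8 and 9.78 in WT sham. It was lower after TAC within each genotype, while the surgeries overlapped over both.

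**Figure D4:**
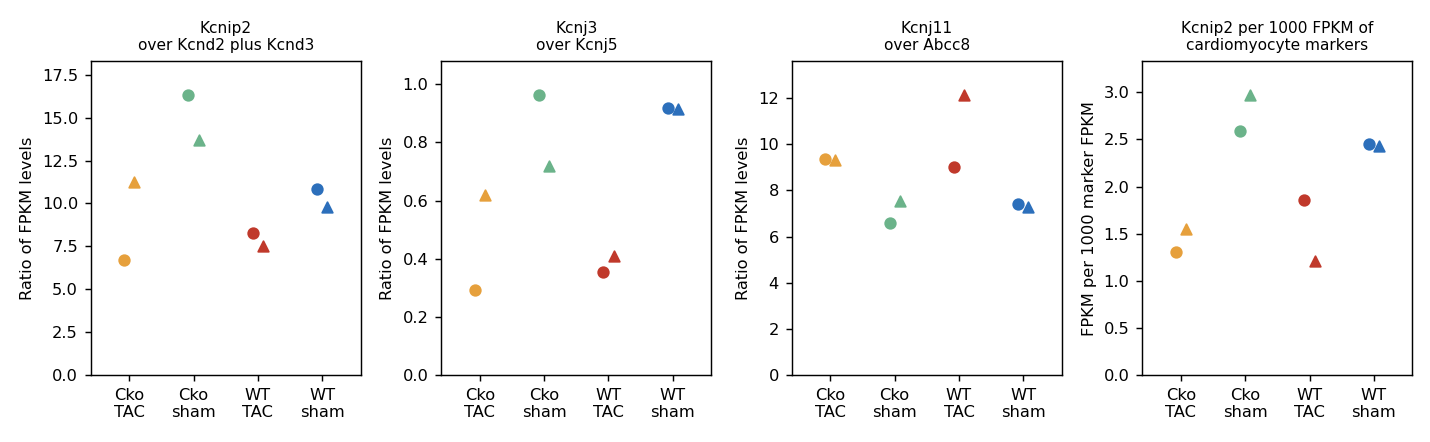
Ratios of FPKM levels within each library for 3 pairs of subunits, and Kcnip2 per 1000 FPKM of 8 cardiomyocyte markers, by group, on linear axes from 0. Circles are replicate 1 and triangles replicate 2; Kcnj3 over Kcnj5 is 0.295 to 0.619 after TAC and 0.718 to 0.964 after sham.

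Markers of cell types moved with surgery too. In whole tissue, fewer cells of a type and less RNA per cell cannot be told apart. The 8 cardiomyocyte markers summed to 12647 and 15374 FPKM in Cko TAC against 20889 and 20296 FPKM in Cko sham, and to 12182 and 15477 FPKM in WT TAC against 20918 and 22986 FPKM in WT sham. Of them, 6 fell averaged over genotypes and the median was -0.80. Per 1000 FPKM of these markers, Kcnip2 was at 1.31 and 1.55 in Cko TAC against 2.59 and 2.98 in Cko sham, and at 1.86 and 1.21 in WT TAC against 2.45 and 2.43 in WT sham. Only the 9 genes that had passed in TAC against sham were put on this scale, and no share over all genes was computed. The values describe genes already chosen from these same libraries, with no test. Kcnip2, Kcnv2 and Kcnj3 were lower in every TAC library than in any sham library on this scale, and Kcnab2 was higher. For Kcnab2 this outcome was fixed in advance, because its level was higher and the marker sum lower in every TAC library than in any sham library. Each of the 8 markers was also left out of the sum in turn, an alternative chosen after seeing the data. The lower position then held in 8 of 8 cases for Kcnv2 and Kcnj3 and in 7 of 8 for Kcnip2. Without Actc1, a marker that did not pass (0.09, limma adjusted p = 0.637), Kcnip2 was at 1.87 to 3.12 after TAC and 2.93 to 3.97 after sham, and the surgeries overlapped. For Kcnk3, Kcna5, Kcnd2, Kcnj11 and Kcnn1 the TAC and sham libraries overlapped on the scale of all 8 markers. The 7 macrophage markers all rose (median 0.79), 3 of 7 fibroblast markers rose and 1 of 7 smooth muscle and pericyte markers rose. Of the endothelial and the lymphocyte markers 0 passed, of the erythroid markers 1 fell, of the Schwann cell and neuron markers 1 rose and 1 fell, and of the 4 tested atrial markers 1 rose, which was Nppa, a gene that overloaded ventricles also express. Of 12 clock genes 1 fell, Per1. The clock index was the mean z-score of Arntl, Npas2 and Clock minus that of the other 9 clock genes. It was -1.30 and -1.82 in Cko TAC against 2.08 and -1.31 in Cko sham, and 2.31 and 0.239 in WT TAC against 1.61 and -1.82 in WT sham. With it as a covariate 9 genes passed averaged over genotypes, where 24.5% of all genes did, and 0 in Cko hearts, where 0% of all genes did. In WT hearts 3.92% of all genes then passed, and the WT calls of Kcna5 and Kcnd2 were lost.

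Exons of some of these genes overlap other genes, and the strand setting of the counting was not given in the sources used here, so such levels are uncertain. Kcnj3 shares 1621 of its 5215 exonic bases with Gm26794 (mean 0.0324 FPKM), Kcnk3 shares 229 of 3976 with Gm9899 (2.56 FPKM), and Kcng2 shares 272 of 2989 with D330025C20Rik (1.75 FPKM). On GRCm38 Kcnip2 lies at chr19:45791839-45816061, Kcnv2 at chr19:27322588-27337179, Kcnj3 at chr2:55435970-55598145, Kcnk3 at chr5:30588170-30625271 and Kcnab2 at chr4:152390742-152477871, positions the deposited table and GENCODE M21 share, as for 90 of the 94 genes.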

How the data were processed

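The 8 mouse heart libraries were made with the NEBNext Ultra RNA kit from Trizol extracts, per the labels. Per the submitters' processing notes, the tools were featureCounts 1.5.0-p3, Bowtie 0.12.2 and CASAVA 1.8, and 2 builds, mm10 and mm8, are listed without their roles. The strand setting and the scaling method are not given in the sources used here. The authors deposited 1 table of FPKM values. Multiplied by gene length, values above 0 fell on whole steps (100% within 0.05 of a read), from which reads per gene were recovered. Because the table was known to hold FPKM, a count model was not the main test.

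The main test was limma 3.58.1 (R 4.3.3) on log2(FPKM + 0.5). It took the 13930 genes that had 0.5 FPKM and 10 reads or more in 2 or more libraries. The model had 1 term per genotype and surgery group over all 8 libraries (4 residual degrees of freedom), with trend and robust moderation. Adjusted p-values are two-sided and Benjamini-Hochberg over those genes, with a threshold of 0.05, in 7 comparisons. The added 0.5 understates changes of low genes. The script was tested on simulated data. Replicates of a group differed beyond counting noise (chi-square per degree of freedom 15.9 to 40.5), so none was a copy. Limits from a count of 0 cover counting error only.

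The members, gene lists and tests were chosen with earlier results of these data known. Named genes are the marker genes Kcnip2, Kcnv2 and Kcnj3, those that passed, the 2 highest of each role, the main cardiac repolarization genes and those within 0.1 FPKM of the 0.5 FPKM limit; others stand as examples. Results of 2 tested genes, counted in the totals, are not reported here. Alternatives were other pseudocounts, filters, scalings, limma-voom on the recovered reads, fits on fewer libraries, the replicate number as a block, a clock gene covariate and a fold threshold.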

Additional observations from a re-analysis of the deposited data

Results flagged for a closer look

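In each of 33 tested genes the 4 TAC and the 4 sham libraries, each mixing 2 genotypes, were examined for a lone high or low library by Dixon's criterion at 95%, 66 groups in all. Chance sets apart about 1 in 20 such groups, and 8 stood out. In the TAC libraries, Kcnj8 was at 20.5 FPKM in WT TAC 1 against 32.7 to 33.6 FPKM in the other 3, and Kcnj2 was at 3.82 FPKM in WT TAC 1 against 6.63 to 7.06 FPKM. Kcnj15, an inward rectifier, was at 2.34 FPKM in WT TAC 1 against 0.431 to 0.507 FPKM. Kcna7 was at 0.716 FPKM in Cko TAC 2 against 1.52 to 1.68 FPKM. Kcnd2 was at 1.8 FPKM in WT TAC 2 against 1.51 to 1.55 FPKM. In the sham libraries, Kcne4 at 3.29 FPKM and Kcnn1 at 4.82 FPKM in WT sham 2 stood above 1.94 to 2.14 FPKM and 2.82 to 3.13 FPKM, and Kcnk13, a tandem-pore gene, was at 0.819 FPKM in Cko sham 2 against 0.249 to 0.316 FPKM. Of the 8, 3 belonged to WT TAC 1.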

How the results depend on the processing

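In the average over genotypes, 9 potassium channel genes passed, where 25.4% of all genes did. There 7 to 11 passed under other settings (7.02% to 33.4% of all genes), and 3 where a 2-fold change was also required (4.25%). Kcnv2, Kcnip2 and Kcnj3 passed there in all 19 alternatives run, Kcnk3 and Kcnab2 in 18, Kcnd2 in 17, Kcna5 in 15, Kcnn1 in 10 and Kcnj11 in 8. The WT count of 6, where 13.2% of all genes passed, became 2 when low genes were kept (0.899% of all genes), 2 when the fit held just the 4 libraries compared (1.95%), 3 with the fold threshold (5.04%), 0 without WT sham 1 and WT TAC 1 together (0.00718%), and 1 to 5 with any 1 library left out (1 without WT TAC 1, 2 without WT sham 2 and 3 without WT sham 1, where 0.531%, 1.33% and 3.54% of all genes passed). The Cko count of 4, where 1.49% of all genes passed, became 0 when low genes were kept (0%), 0 with the clock covariate (0%), 2 with the fold threshold (1.09%) and 0 to 4 with any 1 library left out (0 without Cko TAC 1, 0.0431% of all genes, or either Cko sham library, 0%, and 2 without either WT sham library, 0.675% and 0.682%). The cause of these shifts was not tested, except that leaving out libraries leaves fewer samples and dropping the filter tests more genes. Genotype and interaction counts stayed at 0 in 78 recomputations. Of 2329 recomputed single-gene values, 100 lost a call, 9 gained one and 0 reversed.

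The labels do not say whether replicate numbers pair the samples. Correlations of same-numbered deviations were 0.0256 to 0.247, all positive, and these values do not settle it. With the replicate block, 11 genes passed averaged over genotypes and 2 in Cko hearts, where 26.9% and 1.69% of all genes did. Depth limits genes under about 10 reads, such as Kcnj4 in Cko TAC with 3 and 4 reads.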
